A study of Rattus norvegicus with 6 samples.

Results

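Chaperones and chaperonins, the proteins that help other proteins fold, were followed in rat bone marrow mesenchymal stem cells (BMSCs) treated with ginsenoside Rb1, a triterpenoid saponin of ginseng, or with DMSO. Members were chosen by gene symbol alone: the Hspa, Hspb, Hspd, Hspe and Hsph families, Hsp90, Dnaja, Dnajb and Dnajc, Cct2 to Cct8 and Tcp1. The pattern found 83 rows of 22062 in the table, which are 82 symbols of 21797. By the compartment of the protein, 10 were placed as mitochondrial, 14 as endoplasmic reticulum (ER), 10 as subunits or relatives of the cytosolic chaperonin CCT, 21 as cytosolic heat shock proteins (13 of the HSP90, HSP70 and HSP110 families and 8 small heat shock proteins) and 26 as cytosolic or nuclear DNAJ proteins, and Dnajc22 was left without a compartment. Of the 82 members, 67 passed the filter on low values (at least 1 FPKM in at least 3 of the 6 libraries, where FPKM is fragments per kilobase of transcript, scaled to the mapped fragments of the library), and none of them passed it through 1 group only.

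The series held RNA sequencing of 3 Rb1 libraries and 3 DMSO libraries from ribosomal RNA-depleted, strand-marking preparations. The study's methods describe BMSCs flushed from femurs and tibiae of 4-week-old male Sprague–Dawley rats and used at passages 2 to 3, whereas the sample labels call the animals female. Rb1 was given at 20 µM for 24 h, and the DMSO cells carried no Rb1. Whether the 3 libraries of a group were 3 cultures or 3 animals is stated in no source used here. The p-values therefore cover no more than the variation among 6 libraries, and that variation may be technical.

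Chaperones bind unfolded chains and release them through cycles of ATP binding. HSP70 proteins (the Hspa genes) are loaded by J-domain partners (the Dnaj genes) and emptied by exchange factors, whereas chaperonins enclose a substrate in a ring. Each compartment has its own set, and cells raise the cytosolic set through heat shock factors and the ER set through the unfolded protein response. In osteogenic cells the ER set is known for its work on secreted collagen.

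Depth ran between 8197157 fragments in Rb1 replicate 1 and 14177065 in Rb1 replicate 3, and the DMSO libraries held between 10162602 and 12337327. Rb1 replicate 1 was the shallowest and stood apart from the rest, with a mean correlation of 0.972 with its own group, against 0.9799 and 0.981 for the other Rb1 libraries and 0.982 to 0.984 for the DMSO libraries. Of 8 stromal markers in the table, all were present in every library, with a summed level of 6286 to 8362 FPKM in Rb1 and 8522 to 9576 FPKM in DMSO. Markers of other cells were also found. The 7 macrophage markers summed to 426 to 491 FPKM in Rb1 and 504 to 563 FPKM in DMSO, and Cd68 averaged 236 and 286 FPKM. The 5 endothelial markers summed to 21.3 to 23.3 FPKM in Rb1 and 32.0 to 49.4 FPKM in DMSO, with Cdh5 and Kdr under 1 FPKM throughout. The 5 adipocyte markers summed to 650 to 819 FPKM in Rb1 and 542 to 654 FPKM in DMSO. Most of this was Lpl (means of 526 in Rb1 and 445 in DMSO) and Fabp4 (207 and 144). The rest were low: Adipoq averaged 1.42 and 1.15 FPKM, Pparg 2.70 and 2.65, and Plin1, lower in Rb1, 0.467 and 0.797. The 5 erythroid markers summed to 0, 101 and 19.9 FPKM in Rb1 and 9.03, 70.2 and 12.5 FPKM in DMSO. The part of these cells in the results was not tested, and in bulk RNA fewer cells of a type and less RNA per cell cannot be told apart.

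The promoters of 6 members are shown first, because they carry the sequence elements by which heat shock factors and the unfolded protein response act on this family. Each is 250 bases before the RefSeq start site and the start itself, in the GRCr8 build and on the strand of the gene, and 67 of the 82 members matched a RefSeq promoter by gene number. Capitals mark the heat shock element (HSE; GAANNTTC or TTCNNGAA) in Hspe1, at chr9:64084077-64084327 on the plus strand, and in Hspd1, at chr9:64084037-64084287 on the minus strand. They mark the ER stress element (ERSE; CCAAT and CCACG with any 9 bases between them) in Hspa5, at chr3:38452766-38453016 (plus), Hsp90b1, at chr7:23012293-23012543 (minus), and Dnajc3, at chr15:102432417-102432667 (plus), and the element ERSE-II (ATTGG and CCACG with any 1 base between them) in Dnajb11, at chr11:91672800-91673050 (minus).
Hspe1: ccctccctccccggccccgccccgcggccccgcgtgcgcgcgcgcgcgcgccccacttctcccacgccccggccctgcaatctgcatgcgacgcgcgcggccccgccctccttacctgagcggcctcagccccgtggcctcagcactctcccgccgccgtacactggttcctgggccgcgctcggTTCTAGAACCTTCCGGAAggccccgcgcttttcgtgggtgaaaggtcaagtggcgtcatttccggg
Hspd1: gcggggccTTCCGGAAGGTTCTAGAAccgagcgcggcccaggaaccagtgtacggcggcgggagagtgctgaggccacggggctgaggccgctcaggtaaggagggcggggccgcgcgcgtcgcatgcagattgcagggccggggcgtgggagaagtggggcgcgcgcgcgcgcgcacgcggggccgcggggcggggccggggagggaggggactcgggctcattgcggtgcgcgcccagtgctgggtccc
Hspa5: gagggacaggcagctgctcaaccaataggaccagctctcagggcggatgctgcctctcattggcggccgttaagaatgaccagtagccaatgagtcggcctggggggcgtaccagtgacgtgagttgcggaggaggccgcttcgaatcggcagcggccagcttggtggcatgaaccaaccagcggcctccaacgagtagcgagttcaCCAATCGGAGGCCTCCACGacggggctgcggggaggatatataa
Hsp90b1: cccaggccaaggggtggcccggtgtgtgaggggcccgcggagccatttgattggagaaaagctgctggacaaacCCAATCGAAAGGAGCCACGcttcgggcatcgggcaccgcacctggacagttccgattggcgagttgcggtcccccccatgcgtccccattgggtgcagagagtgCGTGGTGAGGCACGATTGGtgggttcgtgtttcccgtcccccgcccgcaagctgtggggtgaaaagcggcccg
Dnajc3: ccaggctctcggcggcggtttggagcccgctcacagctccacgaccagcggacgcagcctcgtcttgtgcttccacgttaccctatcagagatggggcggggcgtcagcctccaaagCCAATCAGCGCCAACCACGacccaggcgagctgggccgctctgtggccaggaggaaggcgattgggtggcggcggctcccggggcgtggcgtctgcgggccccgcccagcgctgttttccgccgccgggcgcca
Dnajb11: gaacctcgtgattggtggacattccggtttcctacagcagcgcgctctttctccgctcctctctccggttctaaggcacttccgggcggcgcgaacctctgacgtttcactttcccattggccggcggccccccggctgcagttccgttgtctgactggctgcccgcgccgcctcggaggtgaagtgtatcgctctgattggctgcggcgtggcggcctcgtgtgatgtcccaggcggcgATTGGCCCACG

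Hspe1 and Hspd1 are a head-to-head pair. Their start sites lie 290 bases apart, and the capitals in both sequences are the same stretch read from opposite strands, 65 to 48 bases before the Hspe1 start and 242 to 225 bases before the Hspd1 start. Over windows of 250 bases before and 50 after the start, searched on both strands, an HSE was found in 20 of the 67 members (29.9%) and in 15.9% of all 33469 RefSeq windows. The longer run of GAA, TTC and GAA with any 2 bases between neighbours, which contains 2 overlapping HSE matches, was found in 6 of 67 members (8.96%), namely Hspe1, Hspd1, Hspa8, Hsph1, Dnaja1 and Cct4, and in 0.798% of all windows. The ERSE was found in 3 of the 14 ER members and in 22 of all windows (0.0657%), with no match in the other member groups, and Hsp90b1 had 2. ERSE-II was found in Dnajb11 and in 17 of all windows (0.0508%). These matches describe the letters of the windows.

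The comparison asked which chaperone transcripts differed after Rb1. No member passed an adjusted p of 0.05 from limma, a moderated linear model fitted to log2(FPKM + 1) over all 10781 genes tested, of which 2 (0.0186%) did. The smallest adjusted p of a member was 0.117. At an unadjusted limma p under 0.05, 17 of the 67 tested members were higher in Rb1 (25.4%), where 8.27% of all genes were, and 3 were lower (4.48%), where 14.6% of all genes were. The 3 Rb1 values lay wholly above the 3 DMSO values in 18 members, against 11.9% of all genes, and wholly below them in 4, against 20.3% of all genes. By value 42 members were higher and 25 lower, and 41.0% of all genes were higher. The median log2 difference, Rb1 minus DMSO, was 0.07 over the members and −0.07 over all genes. The balance over all genes depended on the scaling: with quantile normalization 11.9% were higher and 10.7% lower, with 20 members higher and 2 lower, and with median scaling 12.5% were higher and 9.43% lower, with 20 members higher and 3 lower. The counts shrank together when 1 DMSO library was left out: 10 members and 4.85% of all genes were higher without DMSO replicate 1, 10 members and 5.31% without replicate 2, and 11 members and 6.54% without replicate 3.

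**Figure D1:**
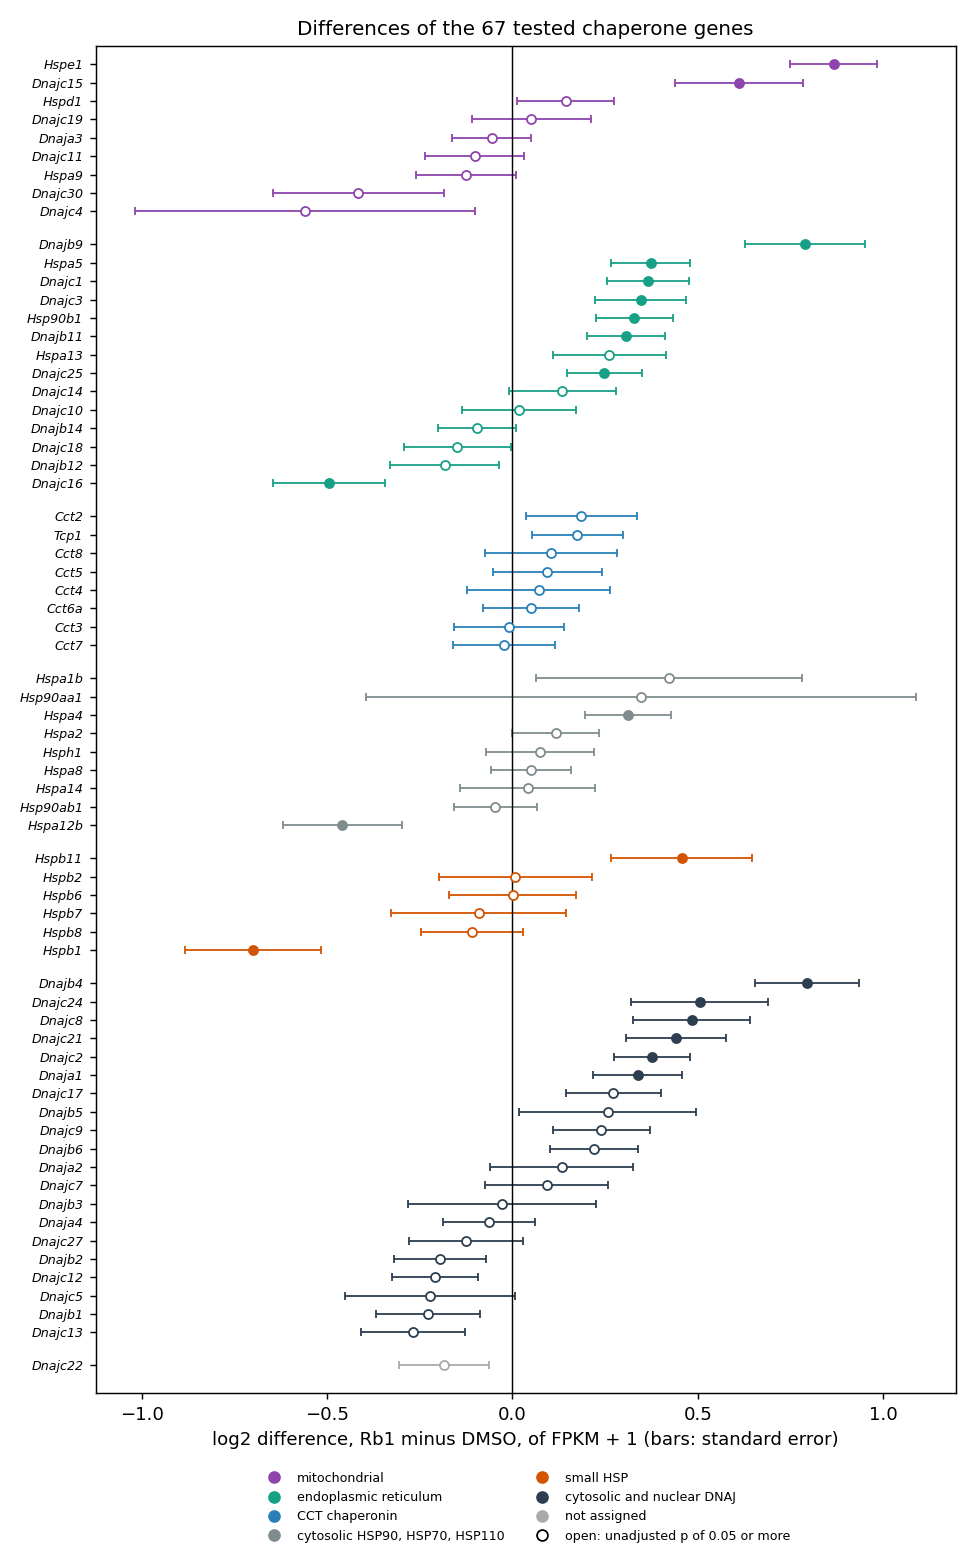
Difference of log2(FPKM + 1), Rb1 minus DMSO, for each of the 67 tested members, by group, with the standard error from limma (n = 3 libraries a group). The ER group has the highest median, 0.25 (not drawn), and Hspe1 at 0.87 lies furthest above 0.

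Among the mitochondrial members, Hspe1 and Dnajc15 were the only 2 of 9 tested (22.2%) at an unadjusted limma p under 0.05, both higher in Rb1. By that p, 8.27% of all genes were higher and 14.6% lower. Hspe1 (ENSRNOG00000051624) encodes HSP10, the lid that closes the HSP60 ring, and it had the highest mean FPKM of the 82 members over all 6 libraries, although Hsp90ab1 was above it in each DMSO library. It had 827, 989 and 914 FPKM in the Rb1 libraries, against 517, 506 and 470.1 FPKM in the DMSO libraries. Every Rb1 library was above every DMSO library, with means of 910.1 ± 81.1 in Rb1 and 498 ± 24.6 FPKM in DMSO (SD, n = 3 each). The log2 difference was 0.87 (SE 0.12, unadjusted p = 0.000118, adjusted p = 0.117 from limma), and Hspe1 ranked 6 of all 10781 genes by p. The values rest on 821, 1272 and 1190 fragments in Rb1 and 463, 578 and 565 fragments in DMSO. FPKM is a per-length scale, and by fragments Hspe1 was below Hspd1 in every library. Hspd1 had 1945, 2640 and 3132 fragments in Rb1 and 2176, 2339 and 2134 fragments in DMSO.

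Hspd1, which encodes the HSP60 ring itself, had 107, 95.8 and 102 FPKM in Rb1, against 98.7, 98.96 and 79.3 FPKM in DMSO, and the groups overlapped (log2 difference 0.14, SE 0.13, adjusted p = 0.531 from limma). The ratio of Hspe1 to Hspd1 FPKM, on this per-length scale, was 7.70, 10.3 and 8.99 in Rb1, against 5.24, 5.11 and 5.93 in DMSO. The ratio was higher in every Rb1 library, by 0.72 on the log2 scale (exact permutation p = 0.1, two-sided, the smallest that 3 against 3 allows). This pair was chosen after its values were seen. In the deposited table the genes stand 1197 bases apart on chromosome 9, Hspd1 from 61680529 to 61690956 on the minus strand and Hspe1 from 61692153 to 61694599 on the plus strand, in a rat build that the table does not name.

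The other mitochondrial members stood on either side of 0. Dnajc15, an inner membrane J protein known to restrain the respiratory chain, had 45.0, 52.8 and 35.2 FPKM in Rb1, against 32.2, 25.3 and 27.7 FPKM in DMSO, without overlap (log2 difference 0.61, SE 0.17, adjusted p = 0.128 from limma). Hspa9, the mitochondrial HSP70 that pulls in imported chains, had 50.1, 55.6 and 64.4 FPKM in Rb1, against 67.9, 58.6 and 58.8 FPKM in DMSO. The Hspa9 groups overlapped, with a log2 difference of −0.13 (SE 0.14). Dnajc4 had 11.5, 10.9 and 10.7 FPKM in Rb1, against 40.2, 11.6 and 9.83 FPKM in DMSO. DMSO replicate 1 alone was high, and the Dnajc4 log2 difference of −0.56 was 0.046 without that library. Dnajc30 had 16.9, 21.5 and 18.2 FPKM in Rb1, against 36.7, 22.9 and 19.3 FPKM in DMSO, again with DMSO replicate 1 the highest (log2 difference −0.42, and −0.16 without it). Dnajc11 of the cristae-organizing complex, Dnaja3, a J partner of Hspa9, and Dnajc19 of the import motor lay between −0.10 and 0.05.

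Transcripts of the mitochondrial genome, read beside Hspe1, were all higher in Rb1 by value, whereas the 9 tested mitochondrial chaperone genes had 4 higher and 5 lower. Of the 12 transcripts tested, 9 (75%) were higher at an unadjusted limma p under 0.05, where 8.27% of all genes were. Together the 12 summed to 127190, 178600 and 168880 FPKM in Rb1, against 60249, 76557 and 115520 FPKM in DMSO. After FPKM were rescaled without them the Hspe1 difference was 0.92, and over all settings tried it lay between 0.81 and 0.97. Nuclear genes for mitochondrial proteases and other quality control factors, a list of 15, all tested, had 0 higher and 3 lower at an unadjusted limma p under 0.05 (median log2 difference −0.16), where 14.6% of all genes were lower. The 3 were Spg7, a protease subunit of the inner membrane (−0.42), Clpb, a disaggregase (−0.33), and Htra2, a protease of the intermembrane space (−0.52).

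**Figure D2:**
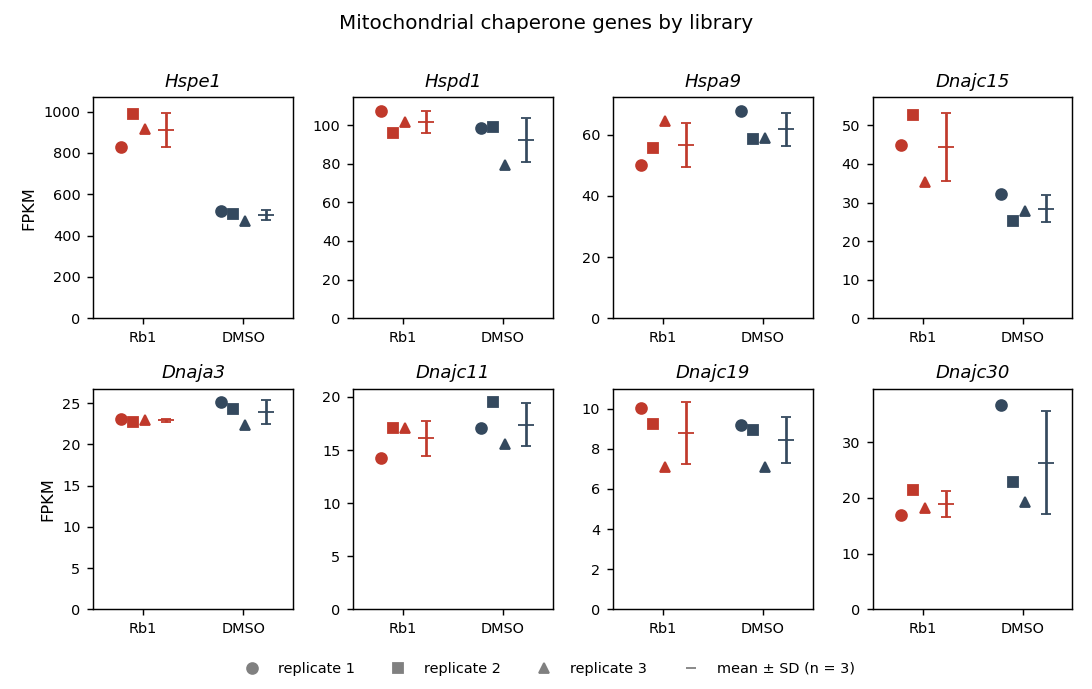
FPKM of mitochondrial chaperone genes in each library, with Rb1 left of DMSO, symbols for replicates and bars for the mean ± SD (n = 3). The Hspe1 points of Rb1 (827 to 989) lie above all DMSO points, whereas those of Hspd1 and Hspa9 overlap.

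The ER was the group with the highest median log2 difference, 0.25. At an unadjusted limma p under 0.05, 7 of its 14 members (50%), all tested, were higher and 1 (7.14%) was lower. By that p, 8.27% of all genes were higher and 14.6% lower. The same 8 members were those whose groups did not overlap. The summed level was 1279, 1277 and 1280 FPKM in Rb1, against 1043, 1032 and 995 FPKM in DMSO. As a share of all FPKM in the table, which had higher totals in Rb1 (796169 to 811071) than in DMSO (715328 to 730837), the group held 0.158%, 0.158% and 0.161% in Rb1, against 0.146%, 0.141% and 0.137% in DMSO. The libraries of the groups were apart on both scales. The count of 7 was 4 when any 1 DMSO library or Rb1 replicate 3 was left out, 5 without Rb1 replicate 2 and 7 without Rb1 replicate 1. The share of all genes higher was 4.85% to 6.54% without a DMSO library, 6.85% without Rb1 replicate 3, 8.85% without Rb1 replicate 2 and 8.62% without Rb1 replicate 1.

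Hspa5 (BiP), the ER HSP70 and a standard readout of the unfolded protein response, had 487, 469.5 and 465 FPKM in Rb1, against 382, 372 and 344 FPKM in DMSO. Every Rb1 library was above every DMSO library (log2 difference 0.37, SE 0.11, unadjusted p = 0.00898, adjusted p = 0.130 from limma). Hsp90b1 (GRP94), the ER HSP90, had 434, 465 and 476 FPKM in Rb1, against 361, 371 and 362 FPKM in DMSO. The groups were again apart (0.33, SE 0.10, adjusted p = 0.148 from limma). These were the genes with ERSE matches in the sequences above, together with Dnajc3, an ER-lumenal J protein that had 67.2, 59.4 and 53.9 FPKM in Rb1, against 49.3, 46.5 and 45.1 FPKM in DMSO (0.35, adjusted p = 0.168 from limma).

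The ER member with the highest log2 difference was Dnajb9 (ERdj4), a J protein of ER-associated degradation, whose window held no ERSE. Dnajb9 had 26.2, 19.8 and 21.0 FPKM in Rb1, against 10.7, 12.05 and 14.8 FPKM in DMSO (0.79, SE 0.16, unadjusted p = 0.00156, adjusted p = 0.117 from limma). Dnajb11 (ERdj3), a soluble J partner of BiP and the gene with ERSE-II, had 82.5, 91.3 and 87.1 FPKM in Rb1, against 69.5, 72.1 and 68.6 FPKM in DMSO. The groups did not overlap (0.31, adjusted p = 0.163 from limma). Dnajc1, an ER membrane J protein, had 38.6, 39.5 and 35.2 FPKM in Rb1, against 29.3, 30.6 and 27.3 FPKM in DMSO (0.37, adjusted p = 0.139 from limma). Dnajc25 had 28.8, 29.7 and 30.4 FPKM in Rb1, against 24.7, 24.6 and 25.1 FPKM in DMSO (0.25, adjusted p = 0.204 from limma), the smallest of the 7 differences. Dnajc3 and Dnajc25 were named after their values were seen.

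Not all of the ER set shared this. Dnajc16 was lower, with 0.696, 1.004 and 1.17 FPKM in Rb1, against 2.13, 1.38 and 1.78 FPKM in DMSO (−0.50, adjusted p = 0.139 from limma), on 15 to 57 fragments a library. The other 6, among them Hspa13 (0.26), an HSP70 of the microsome, Dnajb12 (−0.18) and Dnajb14 (−0.10), membrane J proteins, and Dnajc10 (0.02), a reductase, did not reach an unadjusted p under 0.05. At an unadjusted limma p under 0.05, 8.27% of all genes were higher and 14.6% lower. In a list of 15 ER folding genes outside the family, all tested, 1 was higher (6.67%) and 0 were lower by that p (median 0.10). That gene was Canx, the lectin chaperone calnexin, with 145, 132 and 145 FPKM in Rb1, against 86.8, 95.1 and 113 FPKM in DMSO (0.52, adjusted p = 0.121 from limma). The next by p were Hyou1, the ER HSP110 (−0.30), and Sil1, an exchange factor of BiP (−0.23), neither at an unadjusted p under 0.05.

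**Figure D3:**
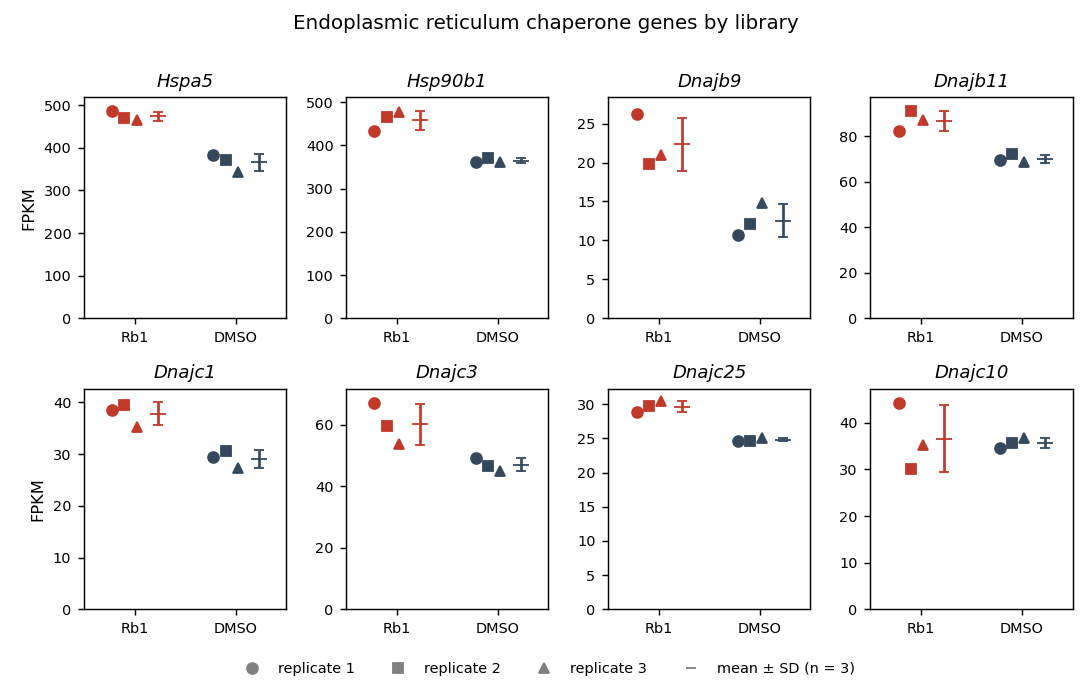
FPKM of 8 ER chaperone genes in each library, with Rb1 left of DMSO, symbols for replicates and bars for the mean ± SD (n = 3). In 7 panels the Rb1 points lie above the DMSO points, and in Dnajc10 they overlap.

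The cytosolic chaperonin CCT is a double ring of Tcp1 and Cct2 to Cct8 that folds actin and tubulin. None of the 8 tested subunits reached an unadjusted p under 0.05 from limma, with adjusted p between 0.416 and 0.977 and log2 differences between −0.02 (Cct7) and 0.19 (Cct2). Tcp1 had 92.2, 75.3 and 78.7 FPKM in Rb1, against 75.9, 72.8 and 68.3 FPKM in DMSO (0.18). Cct2 had 143, 99.9 and 116 FPKM in Rb1, against 108, 105 and 98.6 FPKM in DMSO. Cct5, the most abundant subunit, had 269, 202 and 223 FPKM in Rb1, against 229.8, 226 and 192 FPKM in DMSO (0.09). In each of these Rb1 replicate 1 was the highest library. The geometric mean over the 8 subunits was 115, 85.8 and 90.2 FPKM in Rb1, against 96.2, 92.0 and 84.7 FPKM in DMSO. The median log2 difference of 0.08 was −0.059 without Rb1 replicate 1, so the direction rested on that library.

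Within a library the span of the subunits was similar in both groups. The highest subunit, Cct5, exceeded the lowest, Cct6a, by 5.58, 5.36 and 5.50 times in Rb1, against 5.32, 5.69 and 4.96 times in DMSO, on a per-length scale. Cct4, whose window held the long HSE run, had 154, 97.9 and 99.8 FPKM in Rb1, against 115, 114 and 98.8 FPKM in DMSO (log2 difference 0.07). Cct8 had 92.7, 59.2 and 66.6 FPKM in Rb1, against 70.6, 67.8 and 61.3 FPKM in DMSO (0.10). Cct6a had 48.2, 37.6 and 40.6 FPKM in Rb1, against 43.2, 39.7 and 38.7 FPKM in DMSO (0.05). The highest library was Rb1 replicate 1 in each of these 3 genes. Cct7 had 102, 97.4 and 88.2 FPKM in Rb1, against 114, 90.1 and 89.4 FPKM in DMSO. Cct3 had 122, 90.8 and 90.7 FPKM in Rb1, against 97.7, 107 and 98.2 FPKM in DMSO (−0.01). In both the groups overlapped. At an unadjusted limma p under 0.05, 8.27% of all genes were higher and 14.6% lower. The 10 cofactors that hand substrates to CCT, all tested, had 3 higher (30%) and 1 lower (10%) by that p (median 0.25). Txndc9, a phosducin-like regulator of CCT, had 131, 92.4 and 97.4 FPKM in Rb1, against 53.3, 58.8 and 66.2 FPKM in DMSO, without overlap (0.83, adjusted p = 0.117 from limma). The others were the prefoldin-like genes Pfdn4 (0.47) and Uri1 (0.37), which were higher, and Vbp1 (−0.38), also of prefoldin, which was lower.

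The cytosolic HSP90, HSP70 and HSP110 genes had 1 member higher and 1 lower (11.1% each) of 9 tested at an unadjusted limma p under 0.05 (median 0.07). By that p, 8.27% of all genes were higher and 14.6% lower. Hsp90ab1, the constitutive HSP90, had 519, 581 and 598 FPKM in Rb1, against 606, 578 and 566 FPKM in DMSO (log2 difference −0.05, adjusted p = 0.824 from limma). Hspa8, the constitutive HSP70 with 2 long HSE runs in its window, had 376, 359.7 and 400.2 FPKM in Rb1, against 370.0, 379 and 348 FPKM in DMSO (0.05). Both pairs of groups overlapped. The ratio of Hsp90b1 in the ER to Hsp90ab1 in the cytosol was 0.836, 0.801 and 0.796 in Rb1, against 0.595, 0.641 and 0.640 in DMSO (0.38 on the log2 scale, exact permutation p = 0.1, two-sided). The ratio of Hspa5 to Hspa8 was 1.30, 1.31 and 1.16 in Rb1, against 1.03, 0.982 and 0.988 in DMSO (0.32, exact permutation p = 0.1, two-sided). The ER paralogue was thus higher relative to its cytosolic one in each Rb1 library, in pairs chosen after their values were seen.

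Hsp90aa1, the inducible HSP90, had 32.7, 5.45 and 6.13 FPKM in Rb1, against 21.0, 4.84 and 4.87 FPKM in DMSO. Replicate 1 of each group was several times above the others, and the log2 difference of 0.35 (SE 0.74) was −0.42 without Rb1 replicate 1 and 0.98 without DMSO replicate 1. Hspa1b, the inducible HSP70, had 5.42, 13.4 and 11.5 FPKM in Rb1, against 4.16, 8.18 and 9.09 FPKM in DMSO (0.42, adjusted p = 0.504 from limma). Replicate 1 was the lowest of each group here, and the difference was 0.12 without DMSO replicate 1 and 0.78 without Rb1 replicate 1. Hspa1a, its near-identical copy, was at 0 but for 1 fragment in DMSO replicate 1, and reads of such copies may be split, so the level of each is uncertain. The same holds for Hsp90aa1 and Hspa8, which have related rows outside the symbol pattern.

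Hspa4 and Hsph1 are both of the HSP110 type that empties HSP70. Hspa4 had 67.5, 57.7 and 56.5 FPKM in Rb1, against 48.2, 49.3 and 47.8 FPKM in DMSO, without overlap (0.31, unadjusted p = 0.0297, adjusted p = 0.180 from limma). Hsph1, a heat shock factor target, had 38.1, 44.7 and 47.7 FPKM in Rb1, against 48.0, 38.9 and 37.2 FPKM in DMSO (0.07). Hspa12b, a distant HSP70 known from endothelial cells, had 1.13, 0.641 and 1.39 FPKM in Rb1, against 1.94, 1.89 and 1.56 FPKM in DMSO (−0.46, and −0.31 without Rb1 replicate 2, adjusted p = 0.167 from limma). The endothelial markers moved the same way. The 3 tested of 5 in the table, Egfl7 (−0.78), Esam (−0.53) and Tie1 (−0.40), were all lower at an unadjusted limma p under 0.05, where 14.6% of all genes were. The part of these markers in the Hspa12b value was not tested. Hspa2, an HSP70 best known from the testis, had 1.98, 2.27 and 1.97 FPKM in Rb1, against 1.58, 2.04 and 1.89 FPKM in DMSO (0.12). Its groups overlapped, as did those of Hspa14 (0.04).

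The small heat shock proteins hold unfolded chains without ATP. Of the 6 tested genes with such symbols, Hspb1 was lower and Hspb11 higher (16.7% each) at an unadjusted limma p under 0.05. By that p, 8.27% of all genes were higher and 14.6% lower. Hspb11 is here by its symbol and is known from intraflagellar transport, and no other gene of the group was higher by that p. Hspb1 (HSP27), which also binds actin filaments, had 105, 148 and 115 FPKM in Rb1, against 242, 189 and 169.6 FPKM in DMSO. Every Rb1 library was below every DMSO library, with means of 123 ± 22.2 in Rb1 and 200.1 ± 37.3 FPKM in DMSO (SD, n = 3 each). The log2 difference of −0.70 (SE 0.18, unadjusted p = 0.00590, adjusted p = 0.121 from limma) was the lowest of the 67 tested members on the FPKM + 1 scale. With 0.1 added to FPKM in place of 1, the low genes Dnajc16 (−0.82) and Hspa12b (−0.77) were below Hspb1 (−0.70). Of the 8 stromal markers, Eng (−0.62), Col1a1 (−0.60) and Pdgfrb (−0.44) were lower (37.5%) at an unadjusted limma p under 0.05, where 14.6% of all genes were. Itgb1 (0.38) was higher (12.5%, against 8.27% of all genes), and the other 4 were not at that p. The part of these markers in the Hspb1 value was not tested.

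Hspb11, known as IFT25 of intraflagellar transport, had 19.2, 16.6 and 13.7 FPKM in Rb1, against 8.91, 13.6 and 12.9 FPKM in DMSO (0.46, adjusted p = 0.210 from limma). The lowest Rb1 value was close to the highest DMSO value, and the difference was 0.28 without DMSO replicate 1. Hspb7, a muscle small heat shock protein, had 83.1, 162 and 139 FPKM in Rb1, against 133, 126 and 135 FPKM in DMSO (−0.09), with Rb1 replicate 1 the lowest library. Hspb8, the partner of Bag3 in selective autophagy, had 109, 105 and 114 FPKM in Rb1, against 140.1, 106 and 111 FPKM in DMSO (−0.11), where DMSO replicate 1 was the highest. Hspb6 had 13.5, 21.5 and 16.5 FPKM in Rb1, against 17.7, 16.4 and 16.6 FPKM in DMSO. Hspb2 had 2.32, 2.79 and 2.20 FPKM in Rb1, against 1.55, 3.46 and 2.48 FPKM in DMSO. In both the groups overlapped.

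**Figure D4:**
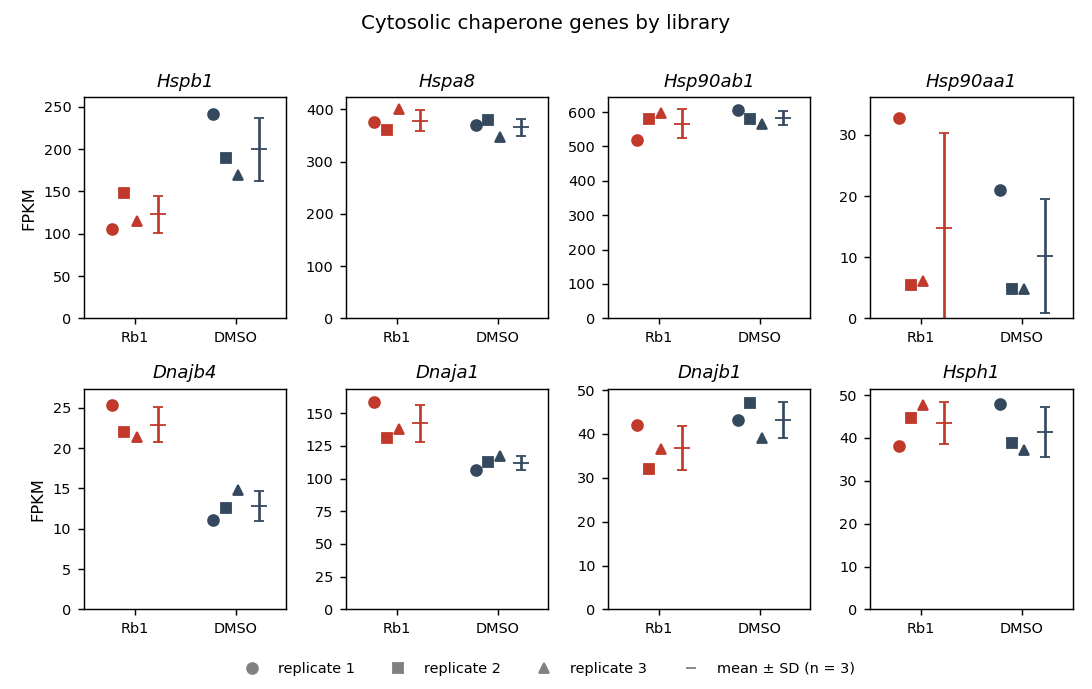
FPKM of 8 cytosolic chaperone genes in each library, with Rb1 left of DMSO, symbols for replicates and bars for the mean ± SD (n = 3), which for Hsp90aa1 in Rb1 would extend below 0 and is drawn to the axis. Hspb1 is lower and Dnajb4 and Dnaja1 are higher in all 3 Rb1 libraries, whereas Hspa8, Hsp90ab1, Dnajb1 and Hsph1 overlap.

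Of the 20 tested cytosolic and nuclear DNAJ genes, 6 were higher (30%) and 0 lower at an unadjusted limma p under 0.05 (median 0.18). By that p, 8.27% of all genes were higher and 14.6% lower. Dnajb4, a J protein of the same type as Dnajb1, had 25.4, 22.0 and 21.4 FPKM in Rb1, against 11.1, 12.6 and 14.8 FPKM in DMSO. The groups were apart (0.80, SE 0.14, unadjusted p = 0.000627, adjusted p = 0.117 from limma). Dnaja1, a general J partner of Hspa8, had 158, 131 and 138 FPKM in Rb1, against 106, 113 and 117 FPKM in DMSO (0.34, adjusted p = 0.168 from limma). Dnajb1, the classical inducible HSP40, leaned the other way, with 41.9, 31.9 and 36.6 FPKM in Rb1, against 43.3, 47.1 and 39.1 FPKM in DMSO (−0.23, adjusted p = 0.358 from limma). Its groups overlapped.

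The other 4 higher DNAJ genes work in ribosome, splicing or translation factor biology. Dnajc2, a ribosome-associated J protein, had 18.8, 18.0 and 17.5 FPKM in Rb1, against 13.5, 13.8 and 13.8 FPKM in DMSO (0.38, adjusted p = 0.122 from limma). Dnajc21, which acts in maturation of the large ribosomal subunit, had 7.58, 6.09 and 7.46 FPKM in Rb1, against 5.04, 4.29 and 5.43 FPKM in DMSO (0.44, adjusted p = 0.138 from limma). Both were without overlap. Dnajc8, a spliceosome-associated protein, had 94.9, 104 and 99.5 FPKM in Rb1, against 61.2, 88.5 and 65.4 FPKM in DMSO (0.48, adjusted p = 0.152 from limma). Dnajc24 (DPH4), needed for the diphthamide of elongation factor 2, had 14.0, 9.65 and 8.76 FPKM in Rb1, against 7.99, 6.16 and 7.46 FPKM in DMSO (0.51, and 0.32 without Rb1 replicate 1, adjusted p = 0.177 from limma). In each of the 4 the lowest Rb1 library was above the highest DMSO library. The remaining 13 tested genes of the group, Dnajb1 aside, lay between −0.27 (Dnajc13) and 0.27 (Dnajc17). Of these, Dnajc17 was without overlap higher in Rb1 and Dnajc12 without overlap lower, neither at an unadjusted limma p under 0.05. Dnajc22, the member left without a compartment, had 11.8, 9.79 and 9.57 FPKM in Rb1, against 12.1, 12.3 and 11.3 FPKM in DMSO (−0.18, adjusted p = 0.392 from limma).

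Heat shock factors are the activators that bind HSEs. Hsf4 had 2.01, 2.27 and 2.52 FPKM in Rb1, against 4.48, 4.20 and 3.42 FPKM in DMSO (−0.62, adjusted p = 0.117 from limma). Hsf2 had 8.76, 7.01 and 8.54 FPKM in Rb1, against 4.74, 6.05 and 6.21 FPKM in DMSO (0.45, adjusted p = 0.146 from limma). Hsf1, the main stress-responsive factor, was at −0.30 (adjusted p = 0.262 from limma). At an unadjusted limma p under 0.05, Hsf2 was higher and Hsf4 lower of the 3 factors tested, and Hsf5 was at 0 in all libraries. Of 19 textbook targets of heat shock factors, 17 were tested, with a median of 0.07. At an unadjusted limma p under 0.05, 4 of them (23.5%) were higher, namely Hspe1, Dnajb4, Chordc1 and Dnaja1, and 1 (5.88%) was lower, Hspb1. By that p, 8.27% of all genes were higher and 14.6% lower. Of the tested targets, 6 lay outside the family, with 1 higher. The 22 cochaperones of HSP90 and HSP70, all tested, had 4 higher (18.2%) and 2 lower (9.09%) by the same limma p (median −0.01). Named by the smallest p, Ppid, a cyclophilin of HSP90 complexes, was at 0.67, Chordc1, an HSP90 binder, at 0.49 and Hspbp1, an exchange factor of HSP70, at −0.58.

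Over the 66 tested partner genes of the family, 9 were higher (13.6%) and 7 lower (10.6%) at an unadjusted limma p under 0.05. Their median was −0.01, and by that p 8.27% of all genes were higher and 14.6% lower. The family as a whole summed to 5426, 5408 and 5401 FPKM in Rb1, against 4905, 4689 and 4426 FPKM in DMSO. The Rb1 sums lay above all DMSO sums. As a share of all FPKM the groups overlapped, with 0.669%, 0.668% and 0.678% in Rb1, against 0.686%, 0.642% and 0.608% in DMSO. That total includes the mitochondrially encoded transcripts, which summed to 127190, 178600 and 168880 FPKM in Rb1, against 60249, 76557 and 115520 FPKM in DMSO. The share of the family in a total without them was not computed.

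The 15 members that were not tested were at low levels. Dnajb7, Dnajb8, Dnajc5b, Dnajc5g, Hspb3 and Hspb9 were at 0 in all 6 libraries. Hspa4l, an HSP110-type gene, had 0.315, 0.431 and 0.418 FPKM in Rb1, against 0.0932, 0.262 and 0.192 FPKM in DMSO, on 11, 23 and 25 fragments in Rb1 and 4, 12 and 10 fragments in DMSO. The others were Cct6b, Cct8l1, Hspa12a, Hspa1a, Hspa1l, Dnajb13, Dnajc6 and Dnajc28. In all, 15 members have loci that overlap another row of the table.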

How the data were processed

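RNA was sequenced from 3 Rb1 and 3 DMSO libraries of rat BMSCs. The authors deposited 1 table with FPKM per gene and library beside a scaled read count (a signal: counts divided by library factors). Per the labels, the submitters' processing notes name CASAVA 1.8, HISAT2 and hg19. The table carries rat identifiers, and the sources used here name no rat build for it. Columns of the authors' own comparison hold fold changes and p-values and were not used.

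Rows of 1 symbol were summed (233 symbols had several rows), which joined both Hspa8 rows. Genes with at least 1 FPKM in at least 3 libraries were kept, and log2(FPKM + 1) was fitted with limma 3.58.1 (lmFit and eBayes) in R 4.3.3, with Benjamini-Hochberg adjustment over all 10781 genes. A log2 difference on this scale understates the change of low genes. Fragments were recovered from steps of the scaled count, where 99.1% to 99.2% of values came within 0.05 of whole numbers, and serve as depth only. They cover counting error alone. The script was tested on simulated data. Alternatives were other pseudocounts, filters, scalings and variance models, the replicate number as a block, and each library left out. Voom on the recovered fragments and a correction for transcript length were added after seeing the data.

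Members and lists were chosen with earlier results of these data known. Values per library are given for the main HSP90, HSP70, chaperonin and Hspb1 genes, Dnaja1 and Dnajb1, whatever their values, and for up to 6 members of each group with the smallest p, and of each other list up to 3 genes with the smallest p. Ratios between members, and members or partners named beyond this rule, were chosen after their values were seen. Promoter sequences are from RefSeq (GRCr8).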

Additional observations from a re-analysis of the deposited data

How the results depend on the processing

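No member was called at an adjusted limma p under 0.05 in the fit above, so no call there could be turned round. Under 19 alternative settings 24 of the 67 tested members changed sign in at least 1. The count of members at an adjusted p under 0.05 was 0 in every setting but limma's array weights, which gave Rb1 replicate 1 a weight of 0.218 and called 800 of all genes (7.42%) and 6 members (8.96%): Hspe1 (adjusted p = 0.0297), Dnajb4 (0.0319), Dnajb9 (0.0347), Hsp90b1 (0.0440), Hspb1 (0.0440) and Dnajc2 (0.0470). Over all settings the adjusted p of Hspe1 lay between 0.0297 and 0.346. At an unadjusted limma p under 0.05, members lower numbered 3, but 1 with a mean of at least 5 FPKM, 6 with array weights and 2 to 6 with each library left out (6 without Rb1 replicate 1). Of all genes 14.6% were lower, 15.8% with that mean, 18.0% with array weights and 8.72% to 15.1% with each library left out. Members higher numbered 17, and 10 to 19 with each library left out (10 without DMSO replicate 1 or 2, 11 without DMSO replicate 3, 19 without Rb1 replicate 1). Of all genes 8.27% were higher, and 4.85% to 8.85% with each library left out (8.62% without Rb1 replicate 1). The ER median of 0.25 was 0.31 with quantile normalization, 0.33 with median scaling, 0.30 without mitochondrially encoded genes, 0.30 with the length correction and 0.20 to 0.27 with each library left out. The cytosolic DNAJ median of 0.18 was 0.035 with no filter, 0.26 with median scaling and 0.11 to 0.22 with each library left out. The CCT median of 0.08 was −0.059 to 0.19 with each library left out and −0.013 with array weights, and the mitochondrial median of −0.06 was 0.024 with median scaling and −0.10 to 0.046 with each library left out (−0.10 without DMSO replicate 3, 0.046 without DMSO replicate 1). Correlations of deviations from the group mean were −0.004, −0.04 and 0.16 for libraries of the same number, against −0.17 to 0.15 for the other pairs. Some single genes were highest in the same replicate number of both groups, such as Hsp90aa1 in replicate 1 and the erythroid marker Hbb in replicate 2. With 3 libraries a group, neither the correlations nor such genes can decide whether replicate numbers pair the samples. With the replicate block 13 members were higher and 3 lower at an unadjusted limma p under 0.05, with 5 of the ER members higher. Of all genes 6.88% were higher and 12.4% lower in that setting. The planned count tests (edgeR and DESeq2) were not run, because some values gave no whole fragments. These were near 0 and also higher, as for Tcp1 at 1347.3 in Rb1 replicate 1. Fewer than 60 fragments stand behind each Dnajc16 value.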
